A study of Arabidopsis thaliana with 9 samples.

Results

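Expression of 10 expansin genes that act outside root hairs was described across the genotypes of the study. They were taken by gene identifier: the alpha-expansin genes EXPA1 (AT1G69530), EXPA2 (AT5G05290), EXPA3 (AT2G37640), EXPA4 (AT2G39700), EXPA5 (AT3G29030), EXPA6 (AT2G28950), EXPA8 (AT2G40610), EXPA10 (AT1G26770) and EXPA11 (AT1G20190), and the beta-expansin gene EXPB3 (AT4G28250). All 10 were present among the 24640 genes of the data, and all 10 passed the filter on low counts that left 20751 genes for testing. RNA was sequenced from whole Arabidopsis thaliana seedlings of 3 genotypes with 3 libraries each: bbx202122, hy5 and wild type (WT) of the Col-0 ecotype. The bbx202122 mutant is named for the genes of the B-box proteins BBX20, BBX21 and BBX22. The hy5 mutant is named for the gene of the bZIP transcription factor HY5. Which alleles the mutants carry is not given in the sources used here. Only WT has an ecotype in the labels, so effects of the mutations and of a different genetic background cannot be told apart. Every seedling had 2 days of stratification at 4 °C, a white-light pulse of 2 h and 22 h of darkness, followed by 3 days under red light of 80 µmol per square metre and second at 22 °C, and was 4 days old at harvest.

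Expansins are secreted proteins that loosen plant cell walls without cutting their polymers. They act best in an acidic wall, where they ease the sliding of cellulose microfibrils and matrix glycans past each other while turgor extends the cell, and they are linked to the elongation of hypocotyls and the expansion of cotyledons and leaves. HY5 promotes seedling development in the light, which includes the restriction of hypocotyl growth, and the B-box proteins act with it.

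Library totals lay between 21.6 and 22.8 in units of 1e6 expected counts. Both cotyledon and root transcripts were present: the 3 green-tissue markers RBCS1A, LHCB1.3 and PSAD1 together reached 24500 to 27600 FPKM in bbx202122, 27700 to 28400 in hy5 and 26900 to 29500 in WT, and 8 of 8 root hair markers were above 0 in every library. The organ in which an expansin transcript arose is therefore not resolved. Of the mutated genes, BBX21 was at 25.7 ± 1.1 counts per 1e6 counts (CPM) in bbx202122 and 101 ± 8.7 CPM in WT, BBX22 at 2.7 ± 0.27 CPM in bbx202122 and 28.9 ± 0.37 CPM in WT, and BBX20 at 4.1 ± 0.29 CPM in bbx202122 and 4.57 ± 0.37 CPM in WT. HY5 was at 6.34 ± 0.47 CPM in bbx202122, 8.23 ± 1.5 CPM in hy5 and 16.8 ± 1.5 CPM in WT (SD, n = 3). In hy5 BBX20 was at 2.14 ± 0.27 CPM, BBX21 at 137 ± 4.6 CPM and BBX22 at 29.8 ± 1.1 CPM. Transcript was thus still counted from all of these genes in their mutants, whose lesions are not given. BBX20 stayed near its WT level in bbx202122, and HY5 was low in both mutants, so those 2 levels do not check the labels. The labels do not tell whether libraries of 1 genotype came from separate cultures. If they did not, the p-values rest on a spread that may be technical only.

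Levels of different genes were compared as FPKM, the deposited values that are normalised to transcript length. In WT the order was EXPA1 (168 ± 5.7 FPKM), EXPA3 (102 ± 6.5), EXPA8 (92.3 ± 5.4), EXPA6 (67.0 ± 4.1), EXPB3 (52.8 ± 6.8), EXPA5 (45.5 ± 2.5), EXPA10 (34.3 ± 2.9), EXPA4 (34.1 ± 1.0), EXPA11 (34.1 ± 0.79) and EXPA2 (1.49 ± 0.29; SD, n = 3 each). Neighbours in this order whose WT libraries overlapped were EXPA3 and EXPA8, EXPB3 and EXPA5, EXPA10 and EXPA4, and EXPA4 and EXPA11. EXPA1 thus stood above every other member in WT. In the mutants EXPA1 and EXPA3 overlapped: EXPA1 had 140, 138 and 127 FPKM and EXPA3 had 136, 138 and 123 FPKM in bbx202122, and EXPA1 had 125, 121 and 129 FPKM and EXPA3 had 131, 126 and 131 FPKM in hy5. EXPA11 had rank 5 in both mutants and rank 9 in WT, at 49.1 ± 2.5 FPKM in bbx202122 and 59.3 ± 2.4 FPKM in hy5. The libraries of a genotype were close for most members, with a median coefficient of variation over the 10 genes of 5.09% in bbx202122, 4.8% in hy5 and 6.02% in WT.

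**Figure D1:**
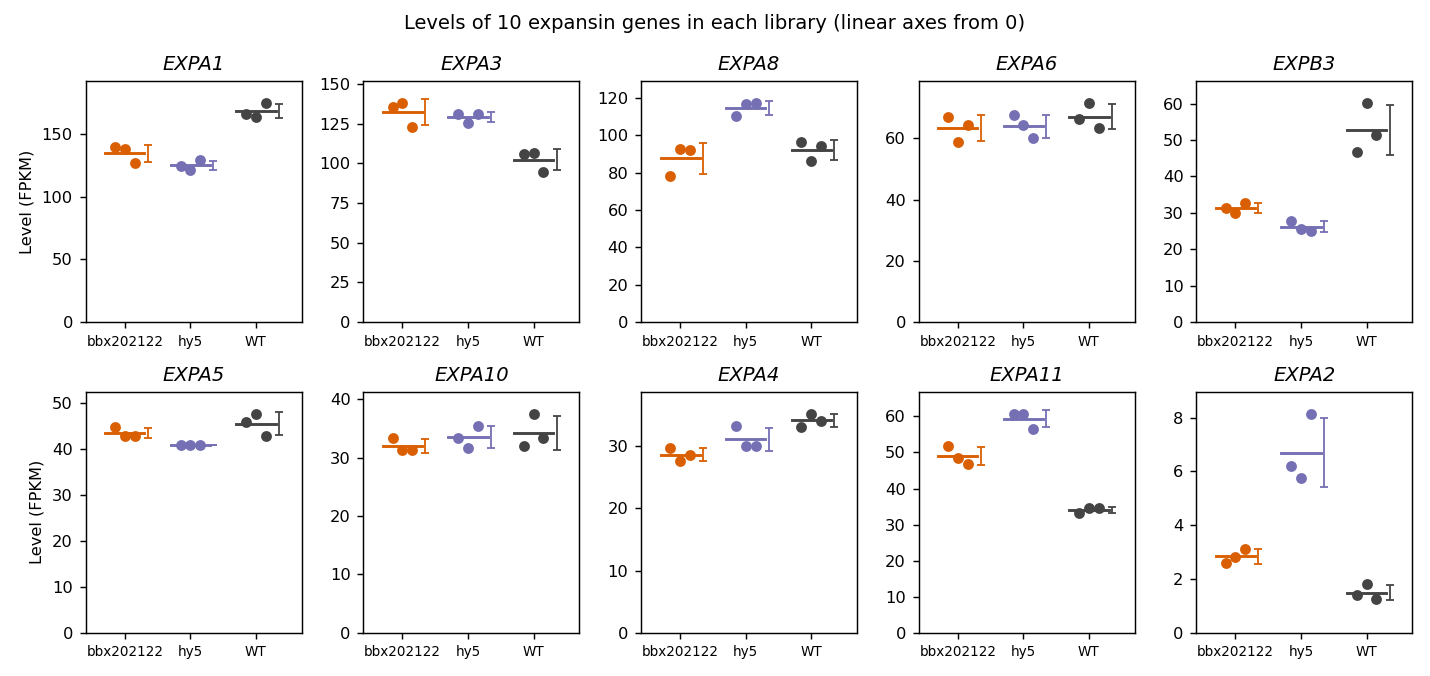
Level in FPKM (linear axes from 0) of each expansin gene in every library of bbx202122, hy5 and WT; points are libraries, horizontal lines are means and bars beside them are 1 SD (n = 3). EXPA11 and EXPA2 lie higher and EXPB3 and EXPA1 lower in both mutants than in WT, without overlap, while the points of EXPA6 and EXPA10 overlap between all genotypes.

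The promoter windows of the 3 members with the largest fold changes against WT, EXPA2, EXPB3 and EXPA11, and of EXPA1 and EXPA10, the pair most alike in coding sequence, are shown because HY5 is known to bind G-boxes and other elements with an ACGT core. Each window holds the 250 bases before the annotated gene start, 5′ to 3′ on the gene's strand, read from the TAIR10.1 genome with the RefSeq annotation. Capitals mark matches, on either strand, to 5 words: CACGTG (G-box), ACGT (its core, which lies within the G-box), CACATG (an E-box bound by phytochrome-interacting factors), CGTGTG (a brassinosteroid response element) and TGTCTC (an auxin response element). The windows are those of EXPA2 (chr5:1568444-1568693, plus strand), EXPA11 (chr1:6999840-7000089, minus strand), EXPB3 (chr4:14002125-14002374, minus strand), EXPA1 (chr1:26141476-26141725, plus strand) and EXPA10 (chr1:9259182-9259431, plus strand).
EXPA2: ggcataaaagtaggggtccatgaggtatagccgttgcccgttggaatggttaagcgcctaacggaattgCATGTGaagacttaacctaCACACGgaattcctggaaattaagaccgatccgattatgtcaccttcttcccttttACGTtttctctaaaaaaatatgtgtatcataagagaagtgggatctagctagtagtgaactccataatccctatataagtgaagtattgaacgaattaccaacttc
EXPA11: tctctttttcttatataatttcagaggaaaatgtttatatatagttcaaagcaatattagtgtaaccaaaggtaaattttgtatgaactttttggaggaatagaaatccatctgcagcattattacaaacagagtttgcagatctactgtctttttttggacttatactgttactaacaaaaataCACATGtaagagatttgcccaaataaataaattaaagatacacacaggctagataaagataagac
EXPB3: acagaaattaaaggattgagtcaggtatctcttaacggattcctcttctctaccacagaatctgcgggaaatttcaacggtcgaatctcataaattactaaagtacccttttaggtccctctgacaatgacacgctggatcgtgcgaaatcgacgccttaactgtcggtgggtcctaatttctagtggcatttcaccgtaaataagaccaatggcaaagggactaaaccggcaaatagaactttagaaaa
EXPA1: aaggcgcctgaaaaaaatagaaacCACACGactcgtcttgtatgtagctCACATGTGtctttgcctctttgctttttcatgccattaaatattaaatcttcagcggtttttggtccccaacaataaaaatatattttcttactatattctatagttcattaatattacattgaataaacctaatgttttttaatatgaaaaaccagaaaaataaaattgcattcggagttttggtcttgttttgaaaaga
EXPA10: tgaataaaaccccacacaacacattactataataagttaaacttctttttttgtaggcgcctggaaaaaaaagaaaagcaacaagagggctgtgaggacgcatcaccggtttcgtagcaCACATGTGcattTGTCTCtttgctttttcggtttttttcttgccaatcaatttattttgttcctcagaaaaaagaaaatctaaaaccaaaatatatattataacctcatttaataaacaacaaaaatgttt

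The EXPA2 window held an ACGT core from 106 to 103 bases before the start, with CACATG from 181 to 176 and CGTGTG from 162 to 157 on the other strand. In EXPA11 the only match was CACATG, from 65 to 60 bases before the start, and in EXPB3 none of the 5 words was found. EXPA1 and EXPA10 both carried CACATG on both strands as overlapping matches, from 201 to 194 bases before the start in EXPA1 and from 131 to 124 in EXPA10. Over all 10 members, CACGTG was found in 0 windows (6.49% of 27443 windows of protein-coding nuclear genes hold it), ACGT in 3 (44.1%), CACATG in 4 (11.1%), CGTGTG in 3 (5.37%) and TGTCTC in 3 (10.9%). In EXPA6 the CGTGTG match, on the other strand, overlapped an ACGT. These matches describe letters in a short window and not binding.

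Differences between genotypes were tested with edgeR's quasi-likelihood F test, two-sided, with Benjamini-Hochberg adjustment over all 20751 genes, and rose, fell and called are used for genes whose adjusted p was below 0.05. In bbx202122 3 members rose and 3 fell relative to WT, where 16.9% of all tested genes were called, 8.62% higher and 8.27% lower. In hy5 4 members rose and 2 fell, where 39.5% of all tested genes were called, 19.6% higher and 19.8% lower. These are 4070 higher and 4117 lower genes with TMM scaling, the trimmed mean of log ratios between libraries, and 3118 higher and 5054 lower with library size as the only scaling; for the members that scaling gave 4 higher and 3 lower. The median log2 fold change over the members was -0.10 in bbx202122 and -0.03 in hy5, against 0.01 and 0.00 over all tested genes. Both comparisons use the same WT libraries, so their values are given side by side. Most members are abundant transcripts, at which small changes are more readily called than at low ones.

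EXPA2, which encodes an expansin known from the endosperm of germinating seeds, was the member with the lowest level and the largest change. It had 2.58, 2.83 and 3.11 FPKM in bbx202122, 6.21, 5.74 and 8.15 FPKM in hy5, and 1.39, 1.82 and 1.27 FPKM in WT. The 3 genotypes did not overlap, hy5 being the highest and WT the lowest. These levels rested on 58, 64 and 72 expected counts in bbx202122, 137, 128 and 180 in hy5, and 31, 40 and 29 in WT. EXPA2 rose 1.88-fold in bbx202122 (log2 fold change 0.91 ± 0.20, SE, adjusted p = 0.0057) and 4.65-fold in hy5 (2.22 ± 0.18, adjusted p = 1.8e-07). Its last 61 bases overlap AT5G05300, on the opposite strand, which had 2 expected counts or fewer in every library. Of 9 seed storage and oil body markers, genes of the seed and its remains, 7 passed the filter: in bbx202122 0 rose and 1 fell (median -2.32), and in hy5 2 rose and 0 fell (median 1.08). WT replicate 3 stood apart in this list: CRC, a cruciferin gene, had 0.90, 0.13 and 0.42 FPKM in bbx202122, 14.5, 9.63 and 11.2 FPKM in hy5, and 0.41, 0.29 and 11.4 FPKM in WT. Without that library the median was -0.19 in bbx202122, where 0 rose and 0 fell, and 1.67 in hy5, where 4 rose. Without hy5 replicate 1, 0 seed markers were called in hy5 (median 0.55). Over all tested genes in the fit of all libraries, 8.62% rose and 8.27% fell in bbx202122, and 19.6% rose and 19.8% fell in hy5. The oleosin gene OLEO2, the most abundant of the list in WT, was at -0.14 ± 0.20 in bbx202122 (adjusted p = 0.69) and -0.48 ± 0.20 in hy5 (adjusted p = 0.076). EXPA2 itself was at 0.81 (adjusted p = 0.029) in bbx202122 and 2.12 (adjusted p = 2.5e-06) in hy5 without WT replicate 3. Their summed level was 23.7 to 49.0 FPKM in bbx202122, 51.7 to 77.1 FPKM in hy5 and 33.9 to 67.1 FPKM in WT, and at most 1 of them (CRB, SESA1 or SESA3) was at 0 in any library. The part of seed-derived RNA in the EXPA2 difference was not tested. The seed markers together were lower in bbx202122 than in hy5 in every library.

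EXPA11 showed the same order of genotypes at a far higher level. It had 51.9, 48.5 and 46.9 FPKM in bbx202122, 60.8, 60.7 and 56.6 FPKM in hy5, and 33.2, 34.5 and 34.6 FPKM in WT, and no libraries of different genotypes overlapped. The rise was 1.43-fold in bbx202122 (0.52 ± 0.06, adjusted p = 3.4e-05) and 1.83-fold in hy5 (0.87 ± 0.06, adjusted p = 3.2e-08). EXPA3, the second most abundant member in WT, had 136, 138 and 123 FPKM in bbx202122, 131, 126 and 131 FPKM in hy5, and 106, 106 and 94.9 FPKM in WT. Both mutants lay above WT without overlap, and they overlapped with each other. It rose 1.29-fold in bbx202122 (0.37 ± 0.06, adjusted p = 0.0011) and 1.35-fold in hy5 (0.43 ± 0.06, adjusted p = 7.4e-05).

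EXPA8 rose in hy5. It had 78.2, 93.0 and 92.2 FPKM in bbx202122, 111, 117 and 117 FPKM in hy5, and 96.2, 86.0 and 94.5 FPKM in WT. The hy5 libraries stood above all others, and those of bbx202122 and WT overlapped. The log2 fold change was 0.37 ± 0.07 in hy5 (1.29-fold, adjusted p = 0.00073) and -0.09 ± 0.07 in bbx202122 (adjusted p = 0.47, 95% interval -0.24 to 0.07).

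EXPB3, the beta-expansin of the group, fell the most. It had 31.4, 29.9 and 32.7 FPKM in bbx202122, 27.9, 25.5 and 25.1 FPKM in hy5, and 46.7, 60.2 and 51.4 FPKM in WT. All libraries of both mutants lay below those of WT, among which replicate 2 was the highest. On the log2 scale EXPB3 changed by -0.76 ± 0.08 in bbx202122, to 0.589 of WT (adjusted p = 1.2e-05), and by -0.93 ± 0.08 in hy5, to 0.524 of WT (adjusted p = 2.7e-07). In coding sequence EXPB3 was 52.0 to 58.3% identical to the 9 alpha-expansin genes, which among themselves were 58.6 to 78.7% identical (36 pairs).

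EXPA1, known from guard cells, where it takes part in stomatal opening, had 140, 138 and 127 FPKM in bbx202122, 125, 121 and 129 FPKM in hy5, and 166, 164 and 175 FPKM in WT. It was lower in every mutant library than in any WT library, and the mutants overlapped. EXPA1 fell to 0.800 of WT in bbx202122 (-0.32 ± 0.06, adjusted p = 0.0013) and to 0.753 of WT in hy5 (-0.41 ± 0.06, adjusted p = 4.7e-05). Of 4 guard cell markers, the potassium channel gene KAT1 rose in both mutants (0.23 ± 0.06 in bbx202122 and 0.22 ± 0.06 in hy5) and the transcription factor gene FAMA fell in both (-0.29 ± 0.09 and -0.23 ± 0.09). GASA9 fell in hy5 (-1.10 ± 0.08) and was at -0.06 ± 0.07 in bbx202122 (adjusted p = 0.66), and MYB60 was at 0.07 ± 0.09 in bbx202122 and -0.16 ± 0.09 in hy5, not called in either. The summed level of the 4 markers, none of them at 0, was 108 to 117 FPKM in bbx202122, 70.5 to 76.3 FPKM in hy5 and 108 to 114 FPKM in WT. GASA9 alone was at 63 ± 6.8 FPKM in bbx202122, 27.9 ± 1.8 FPKM in hy5 and 64.6 ± 2.2 FPKM in WT. The lower sum in hy5 thus lay mostly in this 1 gene and was not shared by the list. In whole seedlings fewer cells of a type and less RNA per cell cannot be told apart, and the part of guard cell number in the EXPA1 difference was not tested.

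EXPA4 fell in bbx202122. Its levels were 29.7, 27.6 and 28.5 FPKM in bbx202122, 33.3, 30.0 and 30.0 FPKM in hy5, and 33.1, 35.2 and 34.0 FPKM in WT, so that bbx202122 lay below both other genotypes and hy5 replicate 1 reached the WT range. The log2 fold change was -0.27 ± 0.06 in bbx202122 (adjusted p = 0.007) and -0.08 ± 0.06 in hy5 (adjusted p = 0.31).

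The other 3 members, EXPA5, EXPA6 and EXPA10, were not called against WT in either mutant. EXPA10, a leaf expansin and the member closest in coding sequence to EXPA1 (78.7% identity), had 33.3, 31.3 and 31.3 FPKM in bbx202122, 33.3, 31.7 and 35.4 FPKM in hy5, and 32.0, 37.5 and 33.3 FPKM in WT. The log2 fold change of EXPA10 was -0.18 ± 0.07 in bbx202122 (adjusted p = 0.095, 95% interval -0.33 to -0.03) and -0.04 ± 0.07 in hy5 (adjusted p = 0.67, -0.19 to 0.11). Unlike the p-values, the intervals are not adjusted over all tested genes. EXPA5, an expansin gene linked to brassinosteroid-dependent growth, had 44.7, 42.9 and 42.7 FPKM in bbx202122, 40.8, 40.9 and 40.8 FPKM in hy5, and 46.0, 47.7 and 42.8 FPKM in WT. In FPKM the hy5 libraries were the lowest in EXPA5, while in CPM bbx202122 replicate 3 (58.9) lay below those of hy5 (59.5 to 60.2). EXPA5 in hy5 was at -0.10 ± 0.05 relative to WT (adjusted p = 0.15). The difference was called with library size as the only scaling (-0.16, adjusted p = 0.038) and with limma on log2(FPKM + 1) (-0.15, adjusted p = 0.037). EXPA6 was at 63.4 ± 4.2 FPKM in bbx202122, 63.9 ± 3.7 FPKM in hy5 and 67.0 ± 4.1 FPKM in WT, with log2 fold changes of -0.10 ± 0.06 (adjusted p = 0.35) and -0.01 ± 0.06 (adjusted p = 0.88). The 95% interval of the EXPA6 change ran from -0.23 to 0.04 in bbx202122 and from -0.15 to 0.12 in hy5.

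The mutants were also compared directly. Between bbx202122 and hy5 0 members were higher in bbx202122 and 4 were lower, where 23.0% of all tested genes were called, 12.1% higher and 10.9% lower. These are 2510 higher and 2263 lower genes, against 3756 higher and 1427 lower with library size as the only scaling, by which 1 member was higher and 3 were lower. EXPA2 was lower in bbx202122 by a log2 fold change of -1.30 ± 0.16 (adjusted p = 4.1e-05), EXPA8 by -0.45 ± 0.07 (adjusted p = 0.00034) and EXPA11 by -0.35 ± 0.06 (adjusted p = 0.00051). EXPA4 was lower by -0.19 ± 0.06 (adjusted p = 0.039). The EXPA4 call was lost without bbx202122 replicate 2 (adjusted p = 0.09) or replicate 3 (adjusted p = 0.088) and without hy5 replicate 1 (adjusted p = 0.16) or replicate 2 (adjusted p = 0.056), and with DESeq2 (adjusted p = 0.053). EXPB3 was at 0.17 ± 0.08 (adjusted p = 0.14), EXPA1 at 0.09 ± 0.06 (adjusted p = 0.30, 95% interval -0.04 to 0.21) and EXPA3 at -0.07 ± 0.06 (adjusted p = 0.49, -0.20 to 0.07). EXPB3 was called higher in bbx202122 with library size as the only scaling (0.24, adjusted p = 0.036) and with limma on log2(FPKM + 1) (0.25, adjusted p = 0.047).

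**Figure D2:**
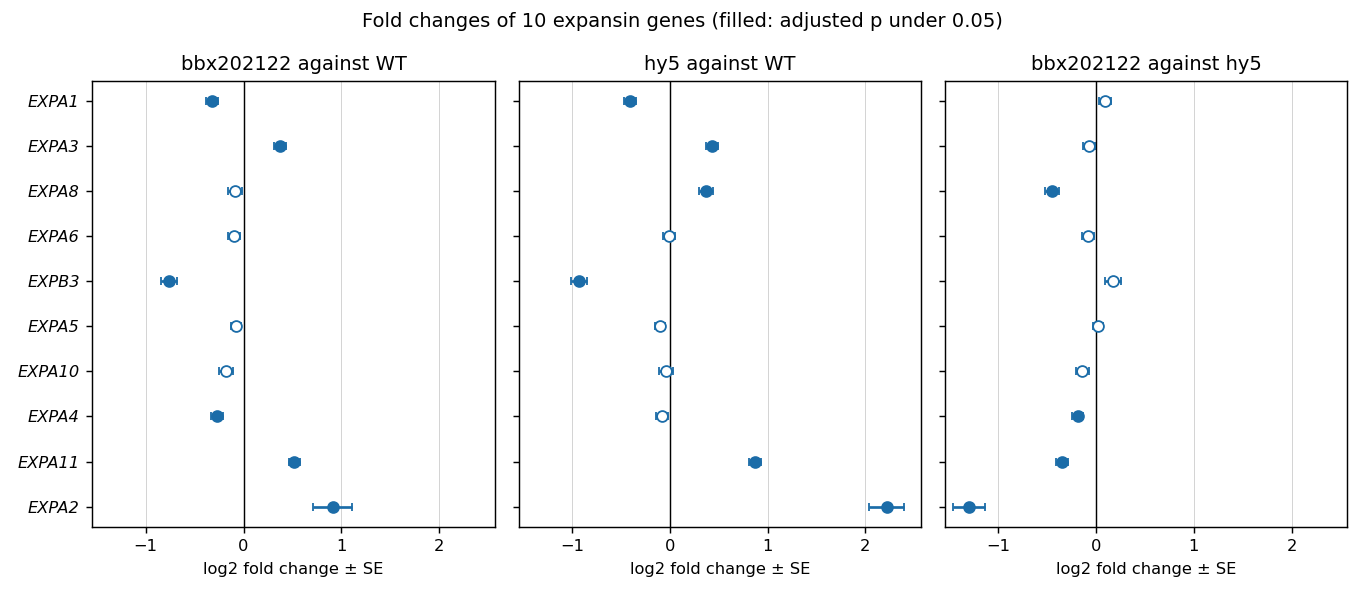
Log2 fold change ± SE (x axis) of each expansin gene (rows, ordered by WT level) in each mutant against WT and in bbx202122 against hy5; filled points passed an adjusted p under 0.05 and open ones did not. EXPA2 lies farthest from 0 in hy5 against WT at 2.22, EXPB3 lies at -0.76 and -0.93 against WT, and the 4 filled points of the direct comparison all lie below 0.

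The summed level of the 10 genes was 605 ± 12 FPKM in bbx202122 (592 to 614), 630 ± 7.4 FPKM in hy5 (622 to 636) and 632 ± 11 FPKM in WT (625 to 645). The bbx202122 libraries lay below the others, and hy5 and WT overlapped. The make-up of the sum shifted: EXPA1 supplied 22.2 ± 0.7% of it in bbx202122, 19.8 ± 0.46% in hy5 and 26.6 ± 1.3% in WT. EXPA3 supplied 21.9 ± 0.93% in bbx202122, 20.5 ± 0.29% in hy5 and 16.2 ± 0.89% in WT. EXPA11 made up 8.1 ± 0.3% in bbx202122, 9.41 ± 0.43% in hy5 and 5.39 ± 0.13% in WT, and EXPB3 5.18 ± 0.32% in bbx202122, 4.15 ± 0.21% in hy5 and 8.34 ± 0.94% in WT. These shares are descriptions and were not tested.

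**Figure D3:**
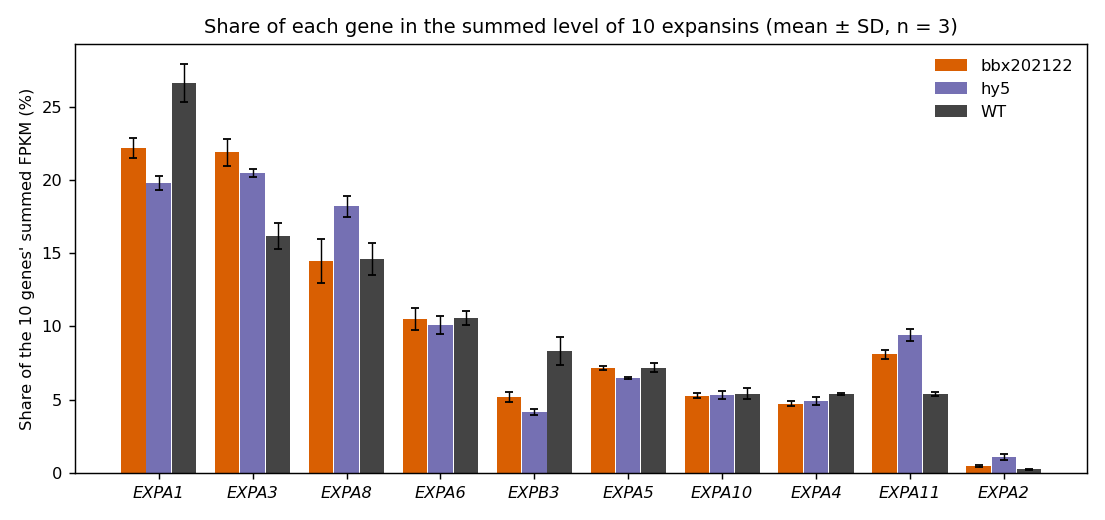
Share (percent) of each gene in the summed FPKM of the 10 expansin genes, as mean ± SD of 3 libraries in bbx202122, hy5 and WT. The shares of EXPA1 and EXPB3 are smaller and those of EXPA3 and EXPA11 larger in both mutants than in WT, and EXPA8 has its largest share, 18.2%, in hy5.

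The rest of the expansin superfamily comprised 26 genes, of which 19 were in the data and 14 passed the filter. In bbx202122 2 of the 14 rose and 7 fell (median -0.18), and in hy5 4 rose and 6 fell (median -0.18). Of all tested genes, 8.62% rose and 8.27% fell in bbx202122, and 19.6% rose and 19.8% fell in hy5. EXPA18 and EXPA7, expansins of root hairs, fell the most: EXPA18 was at 6.25, 7.02 and 7.90 FPKM in bbx202122, 3.30, 4.00 and 3.74 FPKM in hy5, and 17.0, 17.2 and 14.7 FPKM in WT. EXPA7 was at -0.96 ± 0.12 in bbx202122 (adjusted p = 7.6e-05) and -1.63 ± 0.13 in hy5 (adjusted p = 1.6e-07) on the log2 fold change scale. All 8 root hair markers, a list that holds EXPA7 and EXPA18 themselves, fell in both mutants (median -0.94 in bbx202122 and -1.59 in hy5), with summed levels of 82.7 to 95.6 FPKM in bbx202122, 53.0 to 75.3 FPKM in hy5 and 164 to 175 FPKM in WT. The part of root hair number or root mass in the expansins that fell, EXPB3 and EXPA1 included, was not tested.

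EXPB1, the other beta-expansin gene that passed the filter, fell beside EXPB3. Its levels were 14.3, 13.1 and 14.4 FPKM in bbx202122, 11.5, 11 and 10.6 FPKM in hy5, and 16.1, 19.9 and 16.8 FPKM in WT, with log2 fold changes of -0.35 ± 0.08 (adjusted p = 0.0084) and -0.62 ± 0.08 (adjusted p = 3.4e-05). EXPA9 also fell in both mutants, by -0.55 ± 0.07 in bbx202122 (adjusted p = 6.8e-05) and -0.34 ± 0.07 in hy5 (adjusted p = 0.001). The expansin-like gene EXLA1 rose in both, at 18.2, 22.0 and 22.0 FPKM in bbx202122, 18.4, 20.6 and 21.3 FPKM in hy5, and 12.9, 12.9 and 12 FPKM in WT (0.70 ± 0.09 and 0.72 ± 0.09, adjusted p = 7.8e-05 and 1.4e-05). EXPA16 rose in hy5 (0.88 ± 0.15, adjusted p = 0.00021) and was at 0.31 ± 0.15 in bbx202122 (adjusted p = 0.18). Between the mutants 4 of the 14 were higher and 4 lower in bbx202122, where 12.1% of all tested genes were higher and 10.9% lower. Of the 14, 4 were called without bbx202122 replicate 3 or hy5 replicate 2, 5 without hy5 replicate 1, and 4 with DESeq2. EXPA18 (0.87 ± 0.12) and EXPA7 (0.68 ± 0.14) were higher and EXPA16 (-0.57 ± 0.14) was lower in bbx202122 than in hy5.

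**Figure D4:**
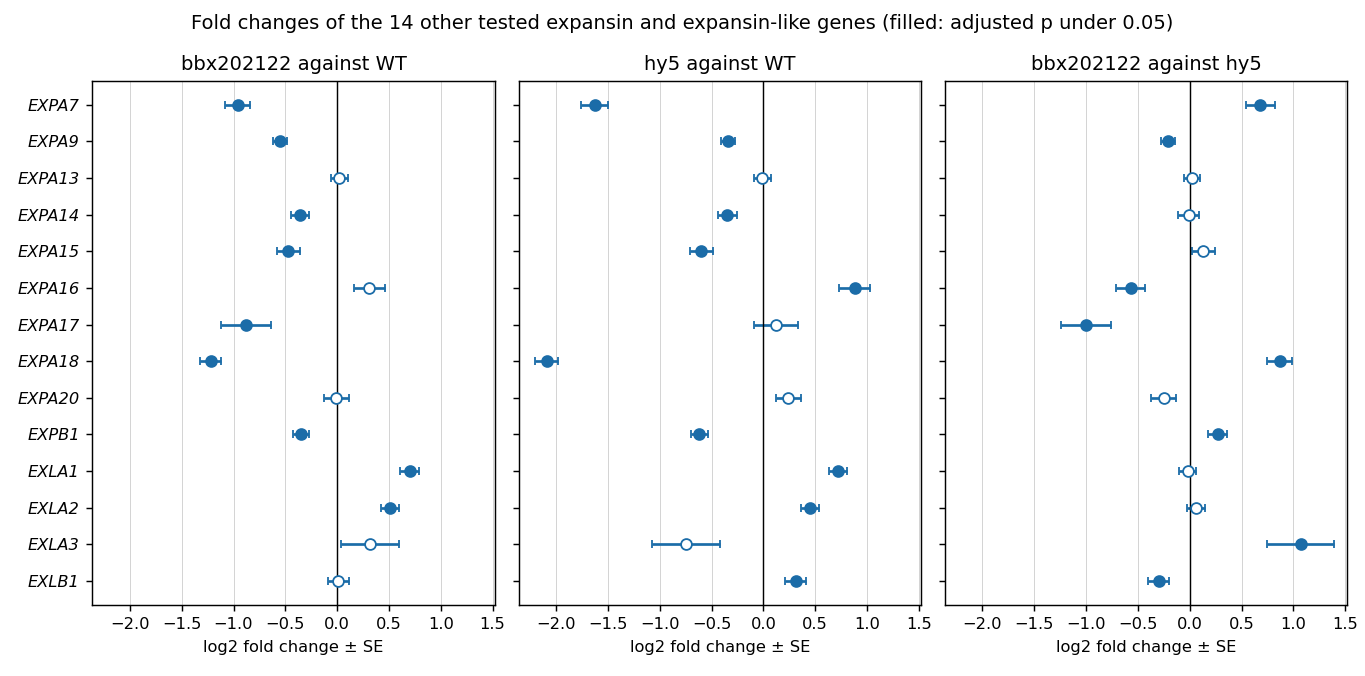
Log2 fold change ± SE (x axis) of the 14 other expansin and expansin-like genes that passed the filter (rows) in the 3 comparisons; filled points passed an adjusted p under 0.05. EXPA18 and EXPA7 lie lowest against WT in hy5, at -2.09 and -1.63, and EXLA1 lies at 0.70 in bbx202122 and 0.72 in hy5.

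Expansins depend on an acidic wall, which plasma membrane proton pumps provide, so 11 genes of the acid growth pathway were read as well. They are the pump genes AHA1 and AHA2, the phosphatase genes PP2C-D1, PP2C-D2 and PP2C-D5, whose products hold the pumps inactive, and SAUR19 to SAUR24, whose products inhibit those phosphatases. In bbx202122 2 of the 11 rose and 0 fell (median 0.25), where 8.62% of all tested genes rose and 8.27% fell. With limma on FPKM 4 of the 11 rose in bbx202122. In hy5 8 rose and 1 fell (median 0.43), where 19.6% of all tested genes rose and 19.8% fell. The 8 comprised a pump gene, phosphatase genes and SAUR genes, so their count is not a shift of the pathway in 1 direction. AHA2, a major pump gene, had 254, 280 and 279 FPKM in bbx202122, 184, 202 and 207 FPKM in hy5, and 251, 272 and 264 FPKM in WT. Its hy5 libraries stood below all others (-0.36 ± 0.07 in hy5, adjusted p = 0.00044; 0.03 ± 0.07 in bbx202122, adjusted p = 0.82). The other pump gene, AHA1, had 179, 177 and 195 FPKM in bbx202122, 189, 199 and 197 FPKM in hy5, and 184, 178 and 178 FPKM in WT. AHA1 rose in hy5 (0.17 ± 0.06, adjusted p = 0.024), a call lost under 7 of 18 alternatives (library size as the only scaling gave 0.12, adjusted p = 0.12; its adjusted p ranged from 0.0049 to 0.12), and was at 0.01 ± 0.06 in bbx202122 (adjusted p = 0.90). PP2C-D1 rose in hy5 (0.50 ± 0.07, adjusted p = 6.9e-05) and was at 0.17 ± 0.07 in bbx202122 (adjusted p = 0.13). SAUR19 rose by 0.83 ± 0.18 in bbx202122 (adjusted p = 0.0045) and 1.08 ± 0.17 in hy5 (adjusted p = 0.00015), and SAUR22 by 0.60 ± 0.13 (adjusted p = 0.0059) and 0.86 ± 0.13 (adjusted p = 9.7e-05). The SAUR genes are near-identical neighbours among which reads can be split. Expected counts were mostly fractional in SAUR19, SAUR20, SAUR21, SAUR23 and SAUR24, so their single values are uncertain. Those of SAUR22 were whole numbers except in bbx202122 replicate 1 (146.01). Between the mutants 1 of the 11, AHA2 (0.39 ± 0.07), was higher in bbx202122 and 2, PP2C-D1 (-0.32 ± 0.07) and SAUR23 (-0.46 ± 0.16), were lower. Of all tested genes, 12.1% were higher and 10.9% lower. The SAUR23 call (adjusted p = 0.043) was lost under 10 of 18 alternatives.

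For the 5 members called against WT in both mutants, the genes with the most similar profile were sought among those tested genes that averaged 5 CPM or more, by the root mean square difference of log2 CPM over the 9 libraries, each gene centred on its own mean. Closest to EXPA1 were CRT1b (0.0453) and HD2B (0.048), and to EXPA3 AT5G62720 (0.0559) and AT1G61260 (0.0639). PCS1 (0.0587) and KCS12 (0.0738) were closest to EXPA11, and AT3G22550 (0.0599) and AT2G36290 (0.0904) to EXPB3. Closest to EXPA2 were MGL (0.253) and AT5G64120 (0.254), farther in absolute terms, while the root mean square deviation of EXPA2 from its own mean was also larger (0.798) than that of EXPA1 (0.182) or EXPA3 (0.2). KCS12 had 9.46 CPM in bbx202122, 12 CPM in hy5 and 6.65 CPM in WT, and AT2G36290 had 20.3 CPM in bbx202122, 16.4 CPM in hy5 and 34.1 CPM in WT.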

How the data were processed

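Per the submitters' processing notes, HISAT, Bowtie2 2.2.5, RSEM 1.2.12 and the TAIR10 build were used; their roles and order, and the HISAT version, are not given in these notes. The deposited expected counts per gene are unscaled and partly fractional. The authors' FPKM values, per the file headers, are scaled to transcript length and depth. Genes under 0.01 FPKM are not listed and were set to 0 in that library. The counts were rounded and analysed in R 4.3.3 by edgeR 4.0.16 with genotype means, TMM scaling, filterByExpr and all 9 libraries; 20751 genes entered the quasi-likelihood F test with Benjamini-Hochberg adjustment. Standard errors are the absolute log2 fold change over the square root of F. CPM use TMM-scaled library sizes; at totals of 21.6 to 22.8 in units of 1e6, 3 counts are 0.132 to 0.139 CPM. The fit was tested on simulated data of 20631 genes, of which 50 were changed at each fold. In bbx202122 against WT it recovered 32% of 1.25-fold, 82% of 1.5-fold, 90% of 2-fold and 96% of 4-fold changes, with 11.8% of calls false. In hy5 against WT it recovered 36%, 78%, 86% and 98%, with 9.1% of calls false. The share of false calls in the simulation thus exceeded the nominal 0.05 threshold. Far fewer genes changed there than were called in the real data. Recovery and false share depend on that number, so these rates may not carry over. Alternatives used DESeq2 1.42.0, limma 3.58.1, other scalings and filters, and 1 library left out at a time. Members and lists were chosen with earlier results of these data known. All 10 members were named, with up to 6 called other expansins (at least 5 CPM in 1 genotype) and up to 4 called acid growth genes, smallest adjusted p first; SAUR23, AHA1 and the single guard cell and seed markers were named after their values were seen. Positions and promoters are those of TAIR10.1. Of the members, only EXPA2 shared 50-base words (1.22%) with another transcript, AT5G05300. Coding sequences were aligned globally with Biopython 1.88. Deviations from the genotype mean correlated between same-numbered libraries at -0.089 to 0.176 (9 pairs), below 0 in every pair with WT. Between WT and bbx202122 the only pairs above 0 were differently numbered. They were WT 1 with bbx202122 3 (0.115), WT 2 with bbx202122 1 (0.107) and WT 3 with bbx202122 2 (0.091). Between bbx202122 and hy5 the same-numbered pairs were at 0.176, 0.091 and 0.047, above every differently numbered pair (-0.125 to 0.042). The replicate number was no block in the main fit and was a block in 1 alternative.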

Additional observations from a re-analysis of the deposited data

How the results depend on the processing

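Each of the 30 combinations of member and comparison was recomputed under 18 alternatives, and 27 kept their side of the threshold under all of them, 24 of these with their direction. The sign turned in 3 combinations that were not called: EXPA3 in bbx202122 against hy5 (0.00 with library size as the only scaling, 0.03 with limma at either pseudocount), EXPA6 in hy5 against WT (0.03 without WT replicate 2 or hy5 replicate 3; -0.06 to 0.03 over the single libraries left out) and EXPA10 in hy5 against WT (0.03 without WT replicate 2; -0.09 to 0.03). The exceptions to the side of the threshold were EXPA5 in hy5 against WT and EXPB3 in bbx202122 against hy5, which gained a call with library size scaling and with limma, and EXPA4 in bbx202122 against hy5; no called direction turned. The EXPA4 call was lost under 10 of the 18, with library size as the only scaling (-0.12, adjusted p = 0.18), with limma on log2(FPKM + 1) (-0.11, adjusted p = 0.17) and log2(FPKM + 0.1) (-0.12, adjusted p = 0.17), with only the compared genotypes in the fit (-0.19, adjusted p = 0.052) and in the other fits named above; its adjusted p ranged from 0.029 to 0.18. The cause was not tested. Members called numbered 6 in bbx202122 against WT under every alternative, 6 to 7 in hy5 against WT, and 3 to 4 between the mutants. Over all genes, 3504 were called in bbx202122 against WT and 2236 to 3482 when single libraries were left out, the lowest being without WT replicate 2. With the replicate number as a replicate block the EXPA4 call between the mutants was lost (-0.19, adjusted p = 0.059) and no other member's call changed. Of the 9 libraries, 3 correlated best with their own number. The block joins libraries by number only, so a batch shared by differently numbered libraries was not tested. Library size scaling moved the median of all genes to -0.05 in hy5 against WT and to 0.08 between the mutants. Without the organelle genes, an alternative chosen after the data were seen, no member's call changed. Depth limits EXPA2 in WT, at 29 to 40 expected counts.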
